A study of Homo sapiens with 9 samples.

Results

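The cell cycle and DNA replication genes described here are 36 genes listed by symbol for their function, with no measured value in the rule: genes of the G1/S phase, which license and copy DNA, and genes of the G2/M phase, which drive and guard mitosis. The list was chosen with earlier results of these data known. The files held 28395 genes by NCBI Gene ID, and each of the 36 symbols matched 1 of them. The genes lie on 18 chromosomes, 5 of them on chromosome 17, and had from 180 counts in a library (CCNE2) to 13834 counts (TOP2A). All 36 passed the filter on low counts.

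The cells were Caco-2, an established line from a human colon carcinoma whose differentiated cultures resemble the absorptive lining of the small intestine, and all samples were differentiated and labelled wild type. Total RNA was sequenced after 24 h with 10 µM carmine, with 20 µM carminic acid, or in regular culture medium without either compound (control), with 3 libraries per group, lettered A to C. Cochineal insects make carminic acid, a red anthraquinone, and carmine is the lake it forms with aluminium. The treated groups therefore differ both in the metal and in the concentration stated. Whether the 3 samples of a group were grown separately is not stated in the labels, and the p-values below rest on the spread between them, which may be technical. No undifferentiated culture was analysed here to set these levels against. In bulk RNA, fewer dividing cells and less RNA of these genes per dividing cell cannot be told apart.

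Cells that leave the cycle keep most of these genes low through repressor complexes of pocket proteins and E2F factors, and in dividing cells their transcription comes in waves. E2F factors open the first wave in late G1, which supplies the replication machinery and the nucleotides. The second wave, in G2 and mitosis, runs through promoters that hold CCAAT boxes and a cell cycle homology region bound by the same family of complexes. Differentiated enterocytes of the gut have left the cycle, and Caco-2 cells slow their division as they differentiate after confluence.

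Promoter sequences were read first, because the motifs of these waves are a property that no expression value enters. RefSeq windows of the build GRCh38.p14, from 250 bases before to 50 bases after the start of transcription, were found for 30 of the 36 genes. BIRC5, MCM5, CCNE2, AURKA, CCND1 and MCM4 are named only. The letters searched, on both strands, were TTTGAA for the cell cycle homology region, CCAAT for the CCAAT box, and TTTGGCGC, TTTCCCGC, TTTCGCGC and TTTGCCGC for E2F sites. A match describes the letters and not a site in use.

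Of the 18 replication and G1/S genes with a promoter, 12 held an E2F site (66.67%), against 1 of the 12 mitotic genes (8.333%, CDK1) and 3.325% of all 27305 promoters of the same length. TTTGAA had the opposite distribution. It stood in 8 of the 12 mitotic promoters (66.67%), in 2 of the 18 replication and G1/S promoters (PARPBP and RRM1) and in 15.43% of all promoters. The CCAAT box was found in 11 of 12 mitotic and 12 of 18 replication and G1/S promoters, against 35.7% of all promoters. Among the 12370 promoters of tested genes the shares were 5.044% for an E2F site, 10.09% for TTTGAA and 36.14% for the CCAAT box. All 6 origin licensing genes with a promoter held an E2F site, and TOP2A, MKI67 and CENPF all held both TTTGAA and CCAAT.

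The 4 promoters printed here show the layouts. PARPBP and MKI67 are genes with low p-values in the comparisons with control, PCNA is an example with an E2F site, and CCNB2 one with a cell cycle homology region behind several CCAAT boxes. Each run holds the 250 bases before the start, 5′ to 3′ on the gene's strand, and capitals mark the motifs, so that ATTGG is a CCAAT box and GCGGGAAA an E2F site on the opposite strand. PARPBP is at chr12:102119933-102120182 (plus strand), MKI67 at chr10:128126424-128126673 (minus strand), PCNA at chr20:5126623-5126872 (minus strand) and CCNB2 at chr15:59104896-59105145 (plus strand).
PARPBP: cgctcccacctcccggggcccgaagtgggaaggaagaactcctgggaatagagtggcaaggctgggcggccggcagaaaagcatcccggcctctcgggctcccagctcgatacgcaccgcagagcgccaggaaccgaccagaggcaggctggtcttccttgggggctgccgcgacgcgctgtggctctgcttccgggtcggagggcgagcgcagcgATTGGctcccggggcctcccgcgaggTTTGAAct
MKI67: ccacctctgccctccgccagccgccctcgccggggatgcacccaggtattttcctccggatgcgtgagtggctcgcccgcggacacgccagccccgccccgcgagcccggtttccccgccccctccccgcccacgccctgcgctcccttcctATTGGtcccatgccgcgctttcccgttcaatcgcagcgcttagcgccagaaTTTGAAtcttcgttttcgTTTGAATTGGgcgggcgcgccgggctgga
PCNA: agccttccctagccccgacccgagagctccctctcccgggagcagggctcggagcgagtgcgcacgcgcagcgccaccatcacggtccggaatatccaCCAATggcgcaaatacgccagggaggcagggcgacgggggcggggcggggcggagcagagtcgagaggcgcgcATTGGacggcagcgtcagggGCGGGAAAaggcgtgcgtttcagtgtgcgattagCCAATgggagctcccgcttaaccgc
CCNB2: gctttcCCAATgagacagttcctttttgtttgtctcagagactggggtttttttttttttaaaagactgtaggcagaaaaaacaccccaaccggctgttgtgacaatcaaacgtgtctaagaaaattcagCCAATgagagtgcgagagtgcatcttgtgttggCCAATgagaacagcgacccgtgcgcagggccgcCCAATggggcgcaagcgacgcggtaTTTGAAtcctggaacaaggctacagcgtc
In PARPBP the single TTTGAA lies close to the start and the single CCAAT box a little before it. MKI67 holds 2 copies of TTTGAA and 2 reversed CCAAT boxes, and its second TTTGAA shares a base with the CCAAT box nearest the start. PCNA holds 3 CCAAT boxes around 1 reversed TTTCCCGC. CCNB2 holds 4 CCAAT boxes in the same direction, followed by 1 TTTGAA.

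Libraries held 54871018 to 57581301 counts, and 16017 genes had enough counts to be tested. Carmine C stood apart on the first principal component (20.95% of the variance), at 34.45, while the other 8 libraries lay from -19.35 to 14.49. The mitochondrial chromosome took 0.974% to 1.30% of counts with carmine, 1.24% to 2.08% with carminic acid and 1.94% to 2.51% in control. Of 21 enterocyte markers 19 were tested, and their summed level was 12156 to 13814 CPM (counts scaled to library size by TMM factors) with carmine, 12685 to 13520 CPM with carminic acid and 12289 to 12786 CPM in control. VIL1, which bundles the actin of microvilli, ran from 1107 to 1346 CPM and CDX2, a factor of intestinal identity, from 181 to 253 CPM, while KRT20, a keratin of mature enterocytes, had 0 counts and CDX1 8 counts in all libraries together. Of the markers of other cells, PTPRC (leukocytes) had 8 counts, KDR (endothelium) 0 and MUC2 (goblet cells) 3 over the 9 libraries. Other markers of the same lists were detected, among them PECAM1 with 5579 counts, CD14 with 3384, TFF3 with 8488 and LYZ with 5887. The summed level of 15 stromal, endothelial and immune markers, most of it CD68 and COL1A1, was 456 to 491 CPM with carmine, 465 to 519 CPM with carminic acid and 434 to 508 CPM in control. That of 10 goblet, enteroendocrine and Paneth markers was 31.1 to 41.1 CPM with carmine, 26.3 to 31.2 CPM with carminic acid and 26.5 to 32.02 CPM in control.

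Most division genes lay above the typical tested gene in these differentiated layers. Together the 36 genes took from 0.221% to 0.262% of the counts of a library. Per kilobase of transcript, the median of the 36 in control was 17.96 CPM per kilobase, against 5.87 over the 15454 tested genes with a known transcript length, and 33 of the 36 lay above that median. On this scale the highest levels in control were those of AURKA (64.6), the kinase of the spindle poles, CDK1 (59.9), the kinase that starts mitosis, MCM7 (45.1), a subunit of the replicative helicase, and TOP2A (39.1), which untangles DNA. Lowest were CCNE2 (1.35) and CCNE1 (4.26), the E-type cyclins of the G1/S step, and between them PARPBP (2.995), a PCNA-binding protein that restrains recombination at forks.

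The summed level of the 36 genes was 2276, 2459 and 2334 CPM with carmine, 2476, 2294 and 2248 CPM with carminic acid, and 2300, 2491 and 2595 CPM in control. Means were 2357 ± 93.6, 2339 ± 120.4 and 2462 ± 149.5 CPM (SD, n = 3 each; carmine, carminic acid, control). The ranges of the 3 groups overlapped, and the span of the control libraries was wider than any distance between group means. Control A was the lowest control library for 33 of the 36 genes and control C the highest for 23. Among the carminic acid libraries, A was the highest for 28. The median coefficient of variation within a group was 9.47% with carmine, 5.67% with carminic acid and 7.87% in control.

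**Figure D1:**
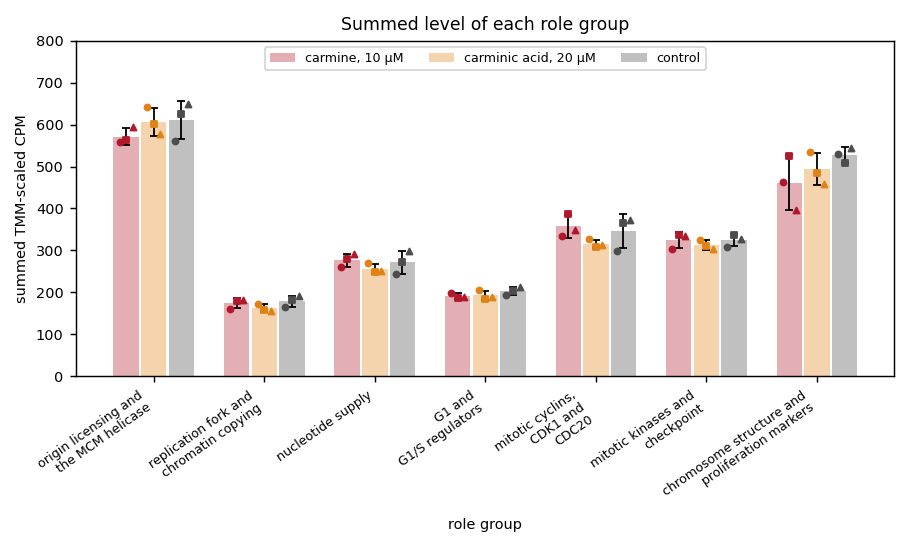
Summed TMM-scaled CPM (vertical axis) of the genes in each of 7 role groups, with bars at the mean, error bars of 1 SD over 3 libraries, and points for libraries A (circle), B (square) and C (triangle). In each role group both treated groups overlap control, and carmine and carminic acid do not overlap in the mitotic cyclin group; the chromosome structure genes reach down to 396 CPM in carmine C.

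Origin licensing, the loading of the MCM helicase onto DNA before S phase, was represented by 8 genes. CDC6 and CDT1 load the helicase and MCM2 to MCM7 form its ring. Their summed level was 557, 564 and 594 CPM with carmine, 642, 601 and 577 CPM with carminic acid, and 561, 626 and 648 CPM in control. MCM3 had 100.1, 102 and 99.999 CPM with carmine, 117, 107 and 106 CPM with carminic acid, and 103, 118 and 121 CPM in control. MCM4, on chromosome 8 from 47960941 to 47978160, had 69.2, 64.7 and 56.3 CPM with carmine, 75.5, 67.3 and 64.7 CPM with carminic acid, and 69.2, 77.7 and 85.4 CPM in control. For both genes the 3 carmine libraries lay below the 3 control libraries, for MCM4 by a margin of less than 0.1 CPM between carmine A and control A. CDT1 had 47.1, 49.7 and 62.1 CPM with carmine, 51.0, 54.3 and 48.8 CPM with carminic acid, and 48.7, 50.4 and 47.7 CPM in control, with 1 carmine library above all others. CDC6 had 31.0, 30.3 and 27.4 CPM with carmine, 34.3, 28.0 and 31.3 CPM with carminic acid, and 31.9, 33.0 and 35.9 CPM in control. The carmine libraries lay below control for CDC6 too, by less than 1 CPM. MCM2 averaged 86.4 ± 5.09 CPM with carmine, 93.3 ± 4.56 CPM with carminic acid and 88.7 ± 7.16 CPM in control. MCM5 averaged 25.6 ± 3.29 CPM with carmine, 27.6 ± 1.06 CPM with carminic acid and 25.8 ± 2.45 CPM in control. MCM6 averaged 87.6 ± 1.07 CPM with carmine, 86.9 ± 6.91 CPM with carminic acid and 89.7 ± 6.75 CPM in control. In these helicase genes both treated groups overlapped control, as in MCM7, which averaged 125 ± 13.1 CPM with carmine, 137 ± 10.1 CPM with carminic acid and 133 ± 10.5 CPM in control.

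At the fork, GINS1 and GINS2 belong to the complex that activates the helicase, PCNA is the sliding clamp that holds the polymerase, FEN1 trims Okazaki fragments, UHRF1 carries DNA methylation over to the new strand, and PARPBP binds PCNA. PARPBP, on chromosome 12 from 102120183 to 102197520, had 6.82, 7.80 and 7.11 CPM with carmine, 7.09, 5.57 and 6.30 CPM with carminic acid, and 8.51, 8.92 and 9.65 CPM in control. Both treated groups lay below control without overlap. GINS1, on chromosome 20 from 25407673 to 25448563, had 21.3, 21.8 and 25.3 CPM with carmine, 19.7, 18.7 and 17.3 CPM with carminic acid, and 21.7, 22.6 and 22.3 CPM in control. The carminic acid libraries were the 3 lowest of the 9. PCNA had 47.3, 58.4 and 49.5 CPM with carmine, 45.5, 41.9 and 45.4 CPM with carminic acid, and 44.9, 54.5 and 59.0 CPM in control, with carminic acid B below every control library and carminic acid A and C between control A and control B. GINS2 had 22.9, 27.7 and 31.2 CPM with carmine, 23.9, 23.9 and 24.0 CPM with carminic acid, and 24.4, 25.8 and 26.1 CPM in control, and the carminic acid libraries agreed to within 0.1 CPM while carmine libraries lay on both sides of control. FEN1 averaged 36.6 ± 2.15 CPM with carmine, 40.0 ± 3.95 CPM with carminic acid and 39.3 ± 2.27 CPM in control. UHRF1 averaged 27.9 ± 2.19 CPM with carmine, 29.4 ± 3.12 CPM with carminic acid and 29.9 ± 2.35 CPM in control, and for both the treated groups overlapped control.

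Nucleotides are supplied by ribonucleotide reductase (RRM1 and RRM2), thymidylate synthase (TYMS) and thymidine kinase (TK1). Their summed level was 260, 279 and 291 CPM with carmine, 269, 247 and 252 CPM with carminic acid, and 243, 272 and 299 CPM in control. TK1 had 39.6, 38.5 and 65.5 CPM with carmine, 48.7, 47.6 and 45.1 CPM with carminic acid, and 41.4, 43.3 and 44.2 CPM in control. Carmine C was the highest of the 9 libraries for this gene, while carmine A and B were the lowest. RRM2 had 126, 140.2 and 136 CPM with carmine, 120.5, 116 and 122 CPM with carminic acid, and 117, 131 and 149.6 CPM in control, with both treated groups overlapping control. RRM1 averaged 71.3 ± 5.73 CPM with carmine, 66.3 ± 8.72 CPM with carminic acid and 72.5 ± 8.32 CPM in control. TYMS averaged 23.01 ± 1.03 CPM with carmine, 23.04 ± 1.34 CPM with carminic acid and 23.02 ± 1.91 CPM in control, and its means differed by less than 0.1 CPM.

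The G1 and G1/S regulators were CCND1, the cyclin that answers growth signals, CCNE1 and CCNE2, whose kinase complexes start S phase, and E2F1, the factor that turns on the replication genes. CCND1 had 149, 133 and 126 CPM with carmine, 147, 127 and 132 CPM with carminic acid, and 140.1, 141 and 152 CPM in control. E2F1 had 36.9, 41.8 and 50.5 CPM with carmine, 45.1, 46.2 and 45.1 CPM with carminic acid, and 43.1, 48.1 and 47.7 CPM in control, and the carmine libraries enclosed the range of the other groups. CCNE2, the lowest of the 36 per kilobase, had 5.39, 4.51 and 3.61 CPM with carmine, 4.13, 3.21 and 3.89 CPM with carminic acid, and 3.67, 5.62 and 4.15 CPM in control. Its coefficient of variation in control, 22.6%, was the largest of the 36 genes there. CCNE1 averaged 7.85 ± 0.394 CPM with carmine, 8.03 ± 0.546 CPM with carminic acid and 8.71 ± 0.840 CPM in control.

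Of the mitotic genes, CCNA2, CCNB1 and CCNB2 are cyclins that bind CDK1, and CDC20 activates the complex that degrades them at anaphase. CDK1 had 114, 136 and 119.5 CPM with carmine, 103, 98.6 and 103 CPM with carminic acid, and 99.0, 116 and 129 CPM in control. CCNB1 had 75.0, 89.6 and 83.0 CPM with carmine, 82.5, 75.1 and 76.5 CPM with carminic acid, and 69.6, 91.9 and 87.8 CPM in control. CCNB2 had 54.0, 64.7 and 55.8 CPM with carmine, 52.5, 51.8 and 52.8 CPM with carminic acid, and 51.3, 64.6 and 58.6 CPM in control. Control A was the lowest control library for all 3 genes, and the carminic acid libraries lay below control B and C. CCNA2 averaged 49.4 ± 3.02 CPM with carmine, 43.0 ± 1.95 CPM with carminic acid and 47.9 ± 6.02 CPM in control. For CDC20 the means were 43.8 ± 0.239 CPM with carmine, 40.7 ± 2.43 CPM with carminic acid and 41.5 ± 3.44 CPM in control.

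PLK1, AURKA and AURKB are kinases of spindle and chromosome segregation, BUB1 and BUB1B hold anaphase back until all chromosomes are attached, and BIRC5 (survivin) is a partner of AURKB at the centromere. BUB1B had 25.8, 29.8 and 23.01 CPM with carmine, 31.4, 28.6 and 27.5 CPM with carminic acid, and 28.9, 31.9 and 30.9 CPM in control. BIRC5 had 35.7, 43.6 and 53.8 CPM with carmine, 37.1, 36.2 and 35.3 CPM with carminic acid, and 37.2, 37.9 and 39.9 CPM in control, so that carmine C was highest while carmine A lay below every control library. AURKB had 22.1, 22.1 and 31.6 CPM with carmine, 25.8, 25.6 and 23.5 CPM with carminic acid, and 23.7, 26.4 and 25.002 CPM in control, again with carmine C above the rest. In the remaining genes of this role the treated groups overlapped control. PLK1 averaged 38.8 ± 2.85 CPM with carmine, 39.5 ± 1.76 CPM with carminic acid and 38.8 ± 2.48 CPM in control. AURKA averaged 146 ± 9.52 CPM with carmine, 142 ± 4.71 CPM with carminic acid and 145 ± 5.60 CPM in control. BUB1 averaged 43.8 ± 5.64 CPM with carmine, 41.3 ± 1.78 CPM with carminic acid and 46.0 ± 4.52 CPM in control.

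MKI67 encodes the Ki-67 antigen that coats mitotic chromosomes and serves as the usual marker of proliferation, TOP2A resolves DNA tangles, and CENPF binds the outer kinetochore. MKI67, on chromosome 10 from 128096659 to 128126423, had 183, 193 and 148 CPM with carmine, 225, 205 and 188 CPM with carminic acid, and 233, 199 and 214 CPM in control. All carmine libraries lay below all control libraries, and below carminic acid A and B. TOP2A had 204, 246 and 187 CPM with carmine, 223, 200.04 and 203 CPM with carminic acid, and 209.8, 228 and 238 CPM in control. CENPF had 76.2, 86.3 and 61.2 CPM with carmine, 86.5, 80.8 and 68.5 CPM with carminic acid, and 86.8, 80.3 and 93.5 CPM in control. In all 3 genes carmine C was the lowest of the 9 libraries.

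**Figure D2:**
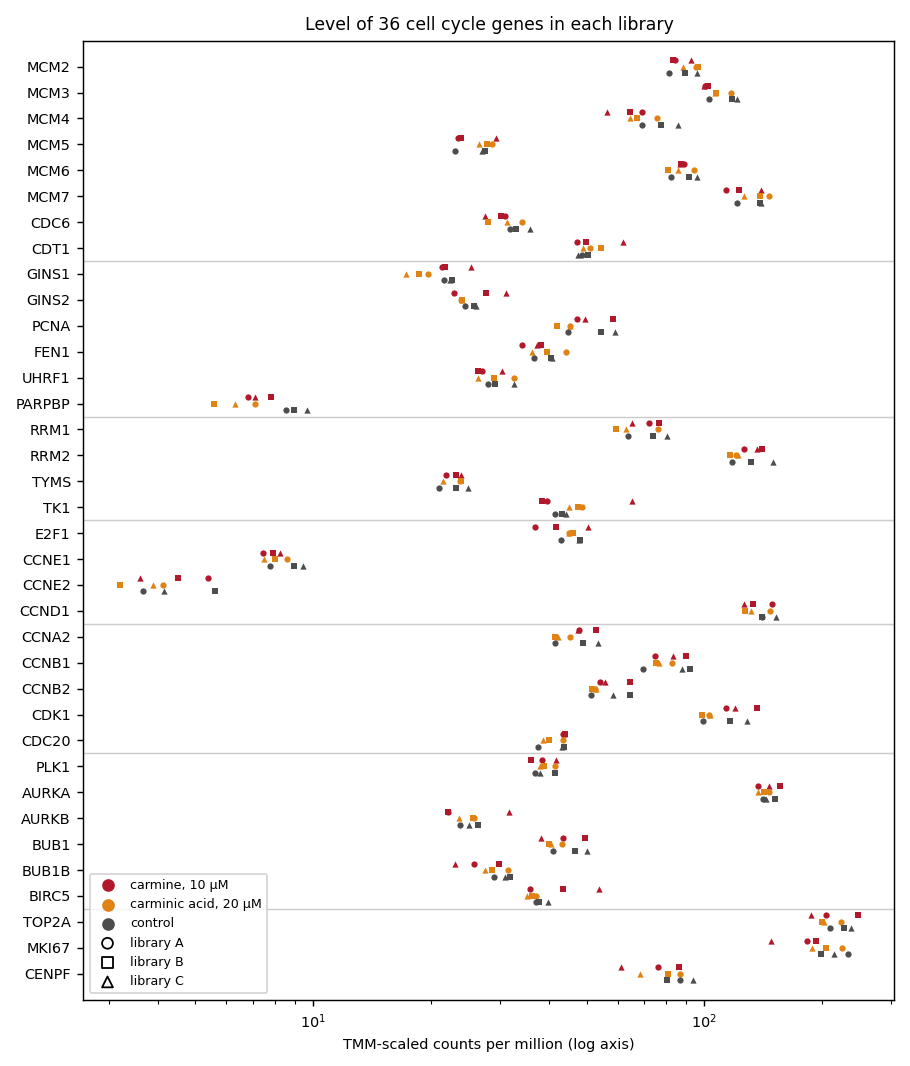
TMM-scaled CPM on a log axis (horizontal) of the 36 genes (rows, grouped by role), with carmine above carminic acid above control in each row and a marker shape per library. Levels run from 3.21 CPM for CCNE2 in carminic acid B to 246 CPM for TOP2A in carmine B, and carmine overlaps control in 31 of the 36 rows, as does carminic acid, though not in all the same rows.

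The carmine comparison asked which transcripts differed from control after 24 h with the aluminium complex. For the 36 division genes no difference passed the threshold: edgeR's quasi-likelihood test called 0 of 36 at an adjusted p of 0.05, as it called 0% of all 16017 tested genes (Benjamini-Hochberg adjustment over all of them). DESeq2 and limma-voom called 0 of the 36 as well, where they called 0.578% and 0.268% of all genes to which they gave an adjusted p. At an unadjusted p under 0.05 there were 5 genes lower and 0 higher, where 5.61% of all genes were lower and 5.38% higher. The smallest adjusted p of the 36 was 0.378.

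MKI67 averaged 175 ± 23.6 CPM with carmine and 215 ± 17.2 CPM in control, a log2 fold change of -0.30 with a 95% interval of -0.51 to -0.09 (adjusted p = 0.378). MCM4 averaged 63.4 ± 6.52 CPM with carmine and 77.5 ± 8.09 CPM in control, a log2 fold change of -0.29 with a 95% interval of -0.50 to -0.08 (adjusted p = 0.384). Both values were nearer to 0 without carmine C, at -0.19 for MKI67 and -0.21 for MCM4. PARPBP averaged 7.24 ± 0.506 CPM with carmine and 9.03 ± 0.579 CPM in control, a log2 fold change of -0.32 with a 95% interval of -0.57 to -0.07 (adjusted p = 0.391). MCM3 averaged 101 ± 1.36 CPM with carmine and 114 ± 9.81 CPM in control, a log2 fold change of -0.18 with a 95% interval of -0.34 to -0.01 (adjusted p = 0.436). BUB1B, with overlapping groups, averaged 26.2 ± 3.41 CPM with carmine and 30.6 ± 1.52 CPM in control, a log2 fold change of -0.22 with a 95% interval of -0.43 to -0.01 (adjusted p = 0.445), and its log2 fold change was -0.13 without carmine C.

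On the higher side, BIRC5 averaged 44.4 ± 9.05 CPM with carmine and 38.3 ± 1.39 CPM in control, a log2 fold change of 0.21 with a 95% interval of -0.03 to 0.46 (adjusted p = 0.495). That value was 0.05 without carmine C. CDT1 had a log2 fold change of 0.11 (adjusted p = 0.658), CDK1 0.10 (0.686), GINS2 0.10 (0.715) and CDC20 0.08 (0.722). CDT1 and GINS2 turned to -0.01 and -0.004 without carmine C, and CDK1 and CDC20 stood at 0.004 and 0.008 without control A. In each of these 5 genes the carmine and control libraries overlapped.

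Over the 36 genes, 12 log2 fold changes were positive and 24 negative, with a median of -0.03 beside 0.01 over all tested genes. Groups did not overlap for 5 genes that were lower (MCM3, MCM4, CDC6, PARPBP and MKI67) and for 0 that were higher, where 7.67% of all genes were lower and 7.32% higher without overlap. By role, 7 of 8 licensing genes and 3 of 3 chromosome structure genes were negative, with medians of -0.06 and -0.22, against 2 of 5 mitotic cyclin and CDK1 genes, with a median of 0.05. With each library's trends of GC content and transcript length removed, 5 of 8 licensing genes were negative and the median of the chromosome structure genes was -0.12. The median over the 36 was -0.11 without control A and 0.01 without control C. The count lower at an unadjusted p under 0.05 was 1 without control C (4.71% of all genes), 7 without carmine C (6.42%), and 3 without control B (3.82%), carminic acid B (5.03%) or carminic acid C (4.96%). Without carmine A, 3 were lower and 2 higher, where 8.73% of all genes were lower and 10.2% higher.

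The fit was precise for most of the genes. The median standard error of a log2 fold change was 0.10 among the 36 genes. The 95% interval lay within 0.5 log2 units (1.41-fold) of no change for 33 of the 36, the exceptions being PARPBP, MKI67 and TK1. It included 0 for 31. Mitochondrial transcripts took a smaller share of counts with carmine than in control, and the median over the 36 genes was again -0.03 with scaling factors made without them.

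**Figure D3:**
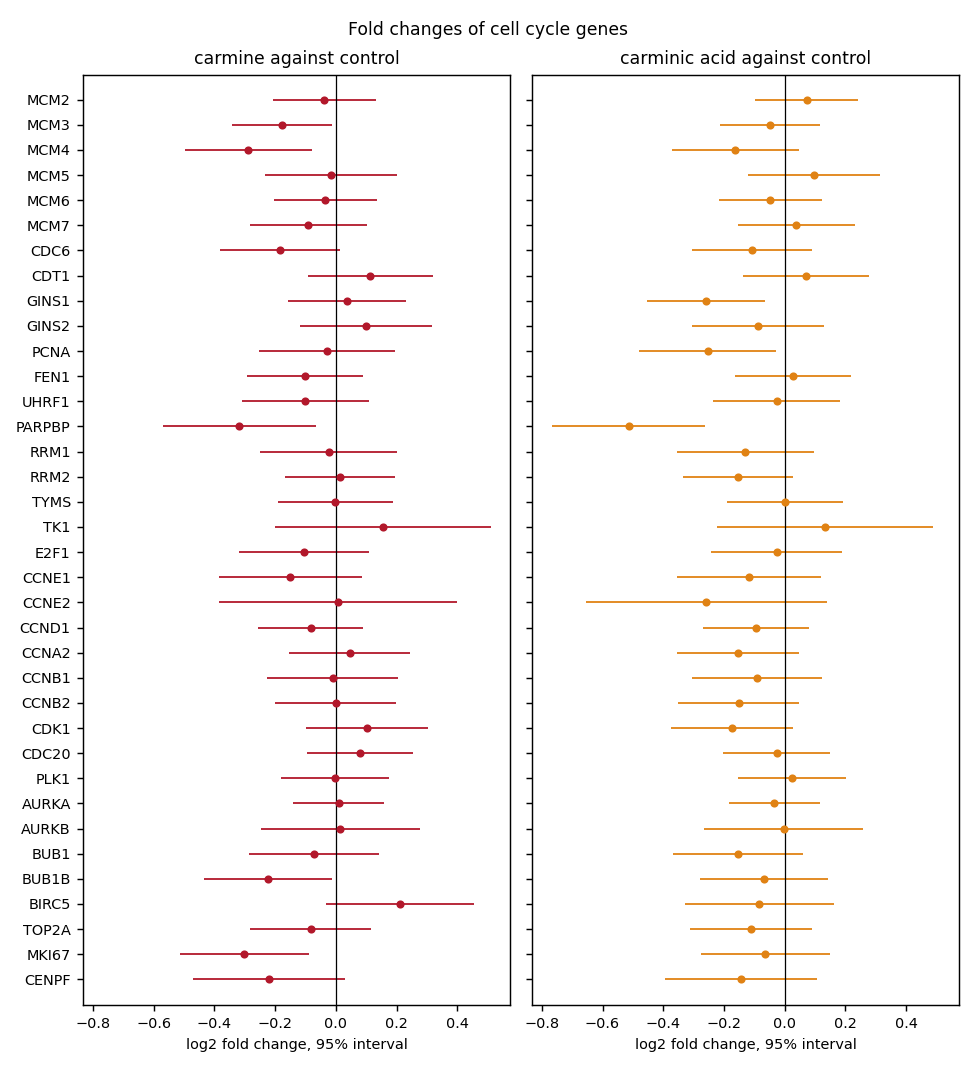
Log2 fold change (horizontal axis) of each of the 36 genes with its 95% interval, for carmine against control and for carminic acid against control. Most intervals cross 0; with carmine, MKI67, MCM4, PARPBP, MCM3 and BUB1B lie to the left of it, and with carminic acid PARPBP, GINS1 and PCNA.

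The same question was put to the free dye at 20 µM, against the same control libraries. No division gene passed here either: edgeR called 0 of 36, as it called 0% of the 16017 genes, and DESeq2 also called 0 of 36 (0.0424% of all genes). At an unadjusted p under 0.05 there were 3 genes lower and 0 higher, where 3.91% of all genes were lower and 2.52% higher. limma-voom called 1 of the 36, PARPBP, and 0.212% of all genes.

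PARPBP averaged 6.32 ± 0.762 CPM with carminic acid and 9.03 ± 0.579 CPM in control, a log2 fold change of -0.51 with a 95% interval of -0.77 to -0.26 (adjusted p = 0.667). Its adjusted p was 0.0486 with limma-voom and 0.0425 in edgeR with the 6 compared libraries alone, a fit that called 0.31% of all genes. The adjusted p of PARPBP ranged up to 0.997 over the other settings tried. With trends of GC content and transcript length removed its log2 fold change was -0.32 (adjusted p = 0.387). PARPBP has the lowest GC content of the 36 transcripts, 35.07%, and over all tested genes the log2 fold change of carminic acid against control had a Spearman correlation of 0.48 with GC content.

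GINS1 averaged 18.5 ± 1.19 CPM with carminic acid and 22.2 ± 0.487 CPM in control, a log2 fold change of -0.26 with a 95% interval of -0.45 to -0.06 (adjusted p = 0.717). PCNA averaged 44.3 ± 2.05 CPM with carminic acid and 52.8 ± 7.21 CPM in control, a log2 fold change of -0.25 with a 95% interval of -0.48 to -0.03 (adjusted p = 0.717). GINS1 did not overlap between the groups, while carminic acid A and C stood above control A for PCNA. CDK1 had a log2 fold change of -0.17 (adjusted p = 0.717) and RRM2 -0.15 (0.717). With the GC and length trends removed GINS1 stood at -0.16, PCNA at -0.20, CDK1 at 0.02 and RRM2 at -0.07.

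On the higher side the values were small. MCM5 had a log2 fold change of 0.10 (adjusted p = 0.792), MCM2 0.07 (0.798), TK1 0.13 (0.815), CDT1 0.07 (0.834) and MCM7 0.04 (0.909). CDT1 and MCM7 were negative with the trends removed, at -0.02 and -0.01. In that fit MCM5 stood at 0.05, MCM2 at 0.02 and TK1 at 0.06. The 3 carminic acid libraries lay above the 3 control libraries for TK1, with no overlap.

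Over the 36 genes, 8 log2 fold changes were positive and 28 negative, with a median of -0.09 beside -0.01 over all tested genes. The groups did not overlap for 4 genes that were lower (GINS1, GINS2, PARPBP and BIRC5) and for 1 that was higher (TK1), where 8.82% of all genes were lower and 12% higher without overlap. By role, all 5 mitotic cyclin and CDK1 genes, all 4 G1 and G1/S regulators and all 3 chromosome structure genes were negative, with medians of -0.15, -0.11 and -0.11. Of the 6 replication fork genes 5 were negative, with a median of -0.17, and the 3 genes lower at an unadjusted p under 0.05 are among them. With the GC and length trends removed, 2 of the 36 were lower at that level (PARPBP and PCNA), where 3.23% of all genes were. Licensing genes were split, 4 positive and 4 negative. With the GC and length trends removed the medians were -0.06 for the mitotic cyclin and CDK1 genes (4 of 5 negative), -0.10 for the G1 and G1/S regulators (4 of 4), -0.06 for the chromosome structure genes (2 of 3) and -0.12 for the fork genes (5 of 6). The 95% interval lay within 0.5 log2 units of no change for 34 of the 36, the exceptions being PARPBP and CCNE2, and included 0 for 33.

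Which control libraries were used moved these counts. Without control A, the lowest control for most of the 36 genes, 32 were negative, the median was -0.12 and 10 were lower at an unadjusted p under 0.05 (4.58% of all genes), with 0 called. Without control B or without control C, 26 were negative, the medians were -0.07 and -0.06, and 2 were lower at that level in each (2.48% and 3.03% of all genes). Without carmine C, a library of the fit but not of this contrast, 5 were lower (7.48% of all genes). limma-voom placed 10 there (9.47% of all genes). In the fit to the 6 compared libraries 8 were lower and 1 higher, where 7.98% of all genes were lower and 9.28% higher.

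Carmine and carminic acid were compared directly, but the metal and the stated concentration (10 µM and 20 µM) cannot be told apart in this contrast. edgeR called 0 of the 36 genes and 1 of the 16017 tested (0.00624%). DESeq2 and limma-voom also called 0 of the 36 (0.686% and 0.0812% of all genes). At an unadjusted p under 0.05 there were 3 genes higher and 1 lower with carmine, where 5.65% of all genes were higher and 3.25% lower. The median over the 36 was 0.02, beside 0.005 over all tested genes, with 21 positive and 15 negative.

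GINS1 averaged 22.8 ± 2.16 CPM with carmine and 18.5 ± 1.19 CPM with carminic acid, a log2 fold change of 0.30 with a 95% interval of 0.10 to 0.49 (adjusted p = 0.407). CDK1 averaged 123 ± 11.6 CPM with carmine and 102 ± 2.68 CPM with carminic acid, a log2 fold change of 0.28 with a 95% interval of 0.07 to 0.48 (adjusted p = 0.439). With the GC and length trends removed these were 0.24 and 0.06. BIRC5 averaged 44.4 ± 9.05 CPM with carmine and 36.2 ± 0.905 CPM with carminic acid, a log2 fold change of 0.29 with a 95% interval of 0.05 to 0.54 (adjusted p = 0.493), and its log2 fold change was 0.14 without carmine C.

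On the lower side MKI67 averaged 175 ± 23.6 CPM with carmine and 206 ± 18.3 CPM with carminic acid, a log2 fold change of -0.24 with a 95% interval of -0.45 to -0.02 (adjusted p = 0.518). That value was -0.12 without carmine C and -0.12 with the trends removed. MCM3 had a log2 fold change of -0.13 (adjusted p = 0.650) and BUB1B -0.15 (0.680). The 3 carmine libraries lay above the 3 carminic acid libraries for 7 genes (GINS1, PCNA, RRM2, CCNA2, CCNB2, CDK1 and CDC20) and below them for 1 (MCM3), where 7.09% of all genes were higher and 6.01% lower without overlap. Of the 5 mitotic cyclin and CDK1 genes all were positive, with a median of 0.15, and their median was 0.09 with the trends removed.

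Of the 9 libraries, leaving out carmine C moved the count of genes called in this contrast the furthest. Without it edgeR called 685 genes (4.21%) in place of 1, among them TK1 of the 36, with a log2 fold change of -0.26 and an adjusted p of 0.0422. TK1 is singled out after its values were seen. With all 9 libraries its log2 fold change was 0.02 (adjusted p = 0.983). Without carmine C, 6 of the 36 genes were higher and 4 lower at an unadjusted p under 0.05, where 11.9% of all genes were higher and 10.3% lower.

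Within the carmine group the 36 genes diverged in carmine C, some higher and some lower. Carmine C was the highest of the 9 libraries for 9 genes and the lowest for 9. Against the mean of carmine A and B, TK1 stood 0.75 log2 units higher, AURKB 0.52, BIRC5 0.44 and CDT1 and E2F1 0.36 each, while CCNE2 stood at -0.46, CENPF at -0.41, MKI67 at -0.34 and BUB1 at -0.28. Shorter and more GC-rich transcripts tended to stand higher: across the 36 genes, which share these libraries, the difference had a Spearman correlation of -0.49 with transcript length (1227 to 12678 bases) and of 0.70 with GC content. Over all 15454 tested genes with a length the deviation of carmine C from the mean of the 9 libraries correlated with length at -0.38 and with GC content at 0.51, beside -0.57 and 0.51 over the 36.

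**Figure D4:**
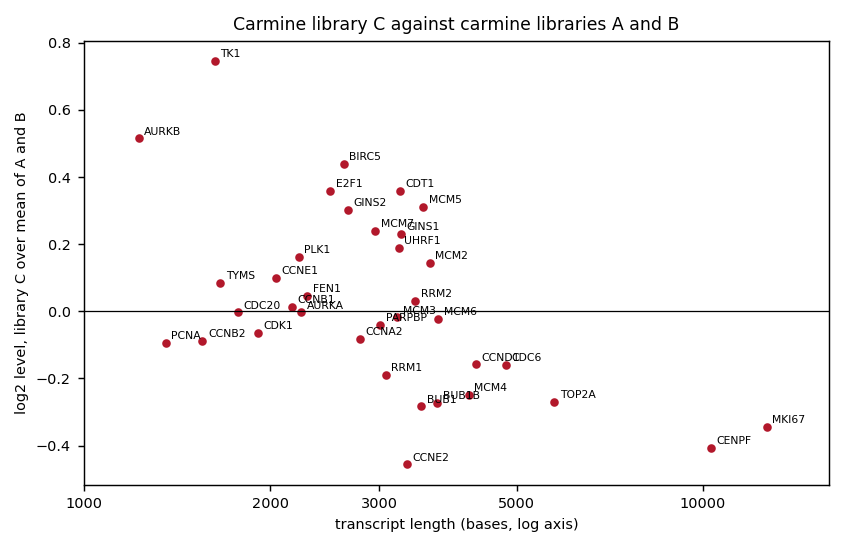
Log2 level in carmine library C over the mean of carmine A and B (vertical axis) against transcript length in bases (log axis) for the 36 genes. TK1 (0.75) and AURKB (0.52) are among the shortest and stand highest, and MKI67 (-0.34) and CENPF (-0.41), the longest, stand low. PCNA (-0.09) and CCNB2 (-0.09), also among the shortest, do not stand high, and the lowest is CCNE2 (-0.46), of 3330 bases.

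Other libraries showed such trends too. Over the 36 genes the correlation of a library's deviations with GC content was -0.54 in carmine A, -0.71 in carmine B, 0.75 in carminic acid B and -0.52 in control C. The carmine against control contrast had Spearman correlations over all genes of -0.25 with length and 0.14 with GC content. With both trends removed per library, the median of the 36 was -0.02 with carmine and -0.06 with carminic acid, beside 0.03 and 0.02 over all tested genes, and 0 of the 36 were called in either comparison. MKI67, the longest transcript, then had a log2 fold change of -0.18 with carmine (adjusted p = 0.171), against -0.30 before.

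**Figure D5:**
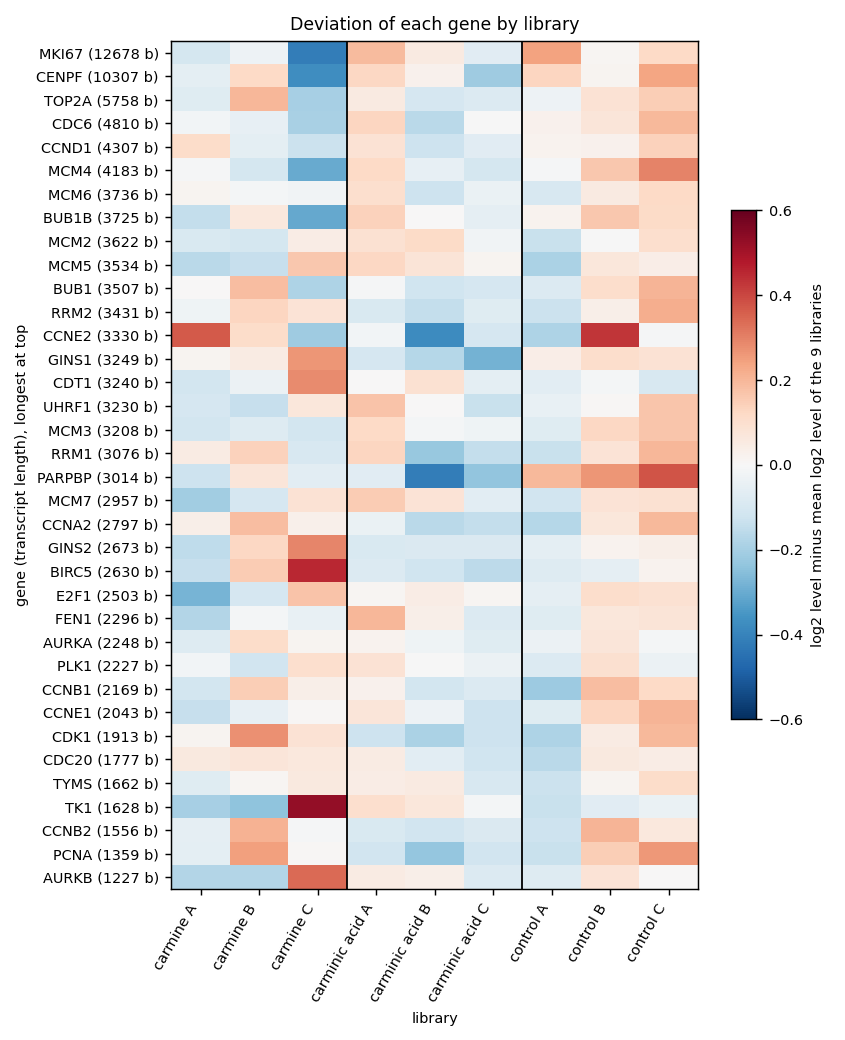
Log2 level of each of the 36 genes (rows, longest transcript at the top) minus its mean over the 9 libraries (columns, by group), from blue (lower) to red (higher). Carmine C runs from blue at the top, at MKI67, to red at TK1 and AURKB near the bottom, though CCNB2 (-0.005) and PCNA (0.007) between them hardly deviate. Control A is the lowest control column in 33 of the 36 rows.

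Further genes of the same processes were counted from lists chosen by function, with earlier results of these data known. Over all tested genes, 48.3% were negative with carmine and 51.9% with carminic acid. At an unadjusted p under 0.05, 5.61% of all genes were lower and 5.38% higher with carmine, and 3.91% lower and 2.52% higher with carminic acid, and the counts that follow are read beside these shares. Of 40 other DNA replication genes, all tested, 31 were negative with carmine (median -0.09) and 37 with carminic acid (median -0.13). Of these, 8 were lower with carmine and 6 with carminic acid at an unadjusted p under 0.05, with 0 higher in either. CLSPN, the adaptor of the replication checkpoint kinase, had the smallest p of the list in both comparisons. It averaged 8.75 ± 0.755 CPM with carmine, 9.66 ± 0.434 CPM with carminic acid and 12.4 ± 1.11 CPM in control (SD, n = 3 each), and neither treated group overlapped control. Its log2 fold change was -0.50 ± 0.11 (SE; adjusted p = 0.162) with carmine and -0.35 ± 0.11 (adjusted p = 0.717) with carminic acid. With carmine, CLSPN passed with DESeq2 (adjusted p = 0.0101) and with the GC and length trends removed (-0.45, adjusted p = 0.0155). These settings called 0.578% and 2.02% of all genes. The smallest p among positive members belonged to RFC5 with carmine (0.09, adjusted p = 0.729), a subunit of the clamp loader, and to RPA1 with carminic acid (0.06, adjusted p = 0.799), which coats single-stranded DNA.

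Of 58 other mitotic genes, 41 were negative with carmine (median -0.07) and 45 with carminic acid (median -0.15). At an unadjusted p under 0.05, 3 were lower and 1 higher with carmine, and 9 lower and 1 higher with carminic acid. With the GC and length trends removed, 4 of the 58 had an unadjusted p under 0.05 with carminic acid in place of 10, and the median was -0.06. Over all 16017 tested genes that count was 1410 in place of 1030. With carmine, 12 of the 58 did in place of 4, and the median was -0.04. Over all tested genes that count was 3150 in place of 1760. INCENP, the scaffold of the AURKB complex, averaged 28.9 ± 0.663 CPM with carmine and 34.2 ± 0.613 CPM in control (log2 fold change -0.24, adjusted p = 0.358). CENPA, the histone of the centromere, averaged 8.92 ± 0.928 CPM with carmine and 6.88 ± 0.608 CPM in control (0.37, adjusted p = 0.371). With carminic acid, CENPK, of the inner kinetochore, averaged 13.1 ± 0.129 CPM against 16.8 ± 1.95 CPM in control (-0.36, adjusted p = 0.717), and -0.12 with the trends removed. ESPL1, the protease that separates sister chromatids, averaged 91.7 ± 2.09 CPM with carminic acid and 81.7 ± 5.10 CPM in control (0.17, adjusted p = 0.717).

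Of 12 other cyclins, CDKs and CDC25 phosphatases, 8 were positive with carmine (median 0.05) and 6 with carminic acid (median 0.02). CCND3, a D-type cyclin, averaged 56.1 ± 5.03 CPM with carmine, 56.7 ± 2.41 CPM with carminic acid and 48.8 ± 2.54 CPM in control, with log2 fold changes of 0.20 (adjusted p = 0.422) and 0.22 (adjusted p = 0.717). CDK6, a partner of the D-type cyclins, stood at -0.09 with carmine (adjusted p = 0.746), and CDK2, the partner of the E-type cyclins, at -0.10 with carminic acid (adjusted p = 0.731).

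The genes that hold the cycle back, 18 CDK inhibitors, pocket proteins and repressor E2Fs, were positive for 12 with carmine (median 0.13) and for 9 with carminic acid (median 0.01). At an unadjusted p under 0.05, 3 were higher and 3 lower with carmine, and 1 each with carminic acid. With the GC and length trends removed, 10 of the 18 had such a p with carmine in place of 6. Over all 16017 tested genes that count was 3150 in place of 1760. With carminic acid 4 of the 18 did in place of 2, beside 1410 in place of 1030 over all tested genes. CDKN1A (p21), the CDK inhibitor that p53 induces, averaged 122 ± 17.8 CPM with carmine, 114.7 ± 3.48 CPM with carminic acid and 99.3 ± 3.52 CPM in control, without overlap with control in either. Its log2 fold change was 0.29 ± 0.09 (SE; adjusted p = 0.358) with carmine and 0.21 ± 0.09 (adjusted p = 0.717) with carminic acid. Without carmine C the value with carmine was 0.17. With carmine it passed with the GC and length trends removed (0.28, adjusted p = 0.0110). E2F8, a repressor E2F, averaged 13.4 ± 1.64 CPM with carmine and 17.1 ± 1.99 CPM in control (-0.35, adjusted p = 0.378). E2F5 averaged 7.25 ± 1.09 CPM with carminic acid and 9.15 ± 1.25 CPM in control (-0.34, adjusted p = 0.717). With all 9 libraries and no trend removed, 0 genes of these 4 lists passed an adjusted p of 0.05 in edgeR, in either comparison with control. With the GC and length trends removed, CLSPN, RECQL4 (a helicase of replication, -0.33, adjusted p = 0.0334) and CDKN1A passed with carmine. That fit called 323 of all 16017 genes (2.02%). RECQL4 is named after its values were seen. Both comparisons use the same control libraries, so their values stand side by side and are not independent.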

How the data were processed

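Total RNA of 9 Caco-2 samples was sequenced, and the authors deposited raw counts per gene for each library, with no normalization. Per the file headers, HISAT2 made the alignments. The submitters' processing notes name FastQC, HISAT, featureCounts and hg38, with no version. For strand setting, annotation release and reads that map to several places, the choice made is not given in the sources used here, and genes with close copies may hold an unknown share of such reads. Groups came from the labels. No library was a copy of another: the chi-square per degree of freedom over genes was 9.51 or more within groups. Total counts of 54871018 to 57581301 per library limit the precision less than the spread between libraries (biological coefficient of variation 10.9%).

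Of 28395 Gene IDs, 27745 had a symbol in RefSeq GRCh38.p14, which also gave coordinates, and 650 (0.0432% of counts) had none. Counts were fitted in R 4.3.3 with edgeR 4.0.16 (filterByExpr by group, TMM factors, robust quasi-likelihood, 1 model of all 9 libraries, no covariate), with Benjamini-Hochberg adjustment over 16017 genes and a threshold of 0.05, two-sided. Standard errors and 95% intervals come from the same fit. Levels are TMM-scaled CPM, and standard deviations have n = 3. Transcript lengths and GC content are those of GENCODE 29 principal transcripts, known for 96.48% of tested genes, and trends were removed as an offset per library with a spline of 5 degrees of freedom. limma 3.58.1, DESeq2 1.42.0 and the other alternatives are given at the end. Replicate letters were not used to pair samples, since the labels do not say what they stand for. The correlations of deviations ran from -0.149 to 0.0952 over 9 same-letter pairs and from -0.162 to 0.156 over 18 other pairs. These ranges overlap and cannot exclude a pairing.

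The 36 genes, the other lists and the markers were chosen with earlier results of these data known. Fold changes are given for the 5 members with the smallest p per direction in each comparison with control, for 3 per direction between the compounds, and for 1 gene per direction of each other pathway list; RefSeq gave the promoters.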

Additional observations from a re-analysis of the deposited data

How the results depend on the processing

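With 3 libraries per group, differences under the interval widths given cannot be seen, and library trends with GC content and length remain in the values unless stated. The median log2 fold change of the 36 genes ran from -0.11 (without control A) to 0.0061 (without control C) over the 9 fits that leave out 1 library for carmine, from -0.14 to -0.06 for carminic acid and from 0.01 to 0.07 for carmine against carminic acid; under every other alternative it moved by less than the spread between replicates. The number of the 36 genes called stayed at 0 for carmine in all 21 alternatives. For carminic acid it was 1 (PARPBP) with limma-voom and with only the 6 libraries compared, and between the compounds it ran from 0 to 1 (TK1, without carmine C) over the fits that leave out 1 library. Fitting the replicate block gave medians of -0.03, -0.08 and 0.01 and called 0 of the 36 genes in each of the 3 comparisons. Whether the letters pair the samples is not stated in the labels.

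Of 882 values of single genes under an alternative, 861 kept direction and side of the threshold, 7 passed it and 14 changed sign, all with adjusted p of 0.904 or more. Leaving out 1 library, CDT1 with carmine ran from -0.011 to 0.19, GINS2 from -0.0038 to 0.21, RFC5 from -0.0077 to 0.16 and CDK6 from -0.19 to 0.019, and MCM7 with carminic acid from -0.034 to 0.088. With the GC and length trends removed, and then with the replicate block as well, CDT1 with carminic acid was at -0.020 and -0.019, MCM7 at -0.014 and -0.0098, CDK1 at 0.016 and 0.020, and CDK6 with carmine at 0.0135 and 0.0141. The cause was not tested.

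Counts over all genes moved more than the 36 did. For carmine (0) they were 7 with RLE factors, library size alone or TMM without mitochondrial genes, 19 with no filter, 79 with DESeq2, 43 with limma-voom, 12 with the 6 libraries, 323 with trends removed, 633 with the replicate block added, and 0 to 36 leaving out 1 library. For carminic acid (0) they were 2 with no filter, 8, 34, 49, 4 and 10 with DESeq2, limma-voom, the 6 libraries, trends removed and the block added, and 0 to 21. Between the compounds (1) they were 2 with each other scaling, 9 with no filter, 79, 13, 5 and 12 with DESeq2, limma-voom, trends removed and the block added, 0 with non-robust estimation or the replicate block alone, and 0 to 685.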
